A study of Mus musculus with 58 samples.

Results

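The genes described here are 10 components of the lysosomal nutrient-sensing pathway that controls the kinase complex mTORC1: Flcn, Fnip1, Fnip2, Rraga, Rragc, Rragd, Rptor, Mtor, Rheb and Ddit4. The members were taken by symbol, from a list drawn up with earlier results of these data known. All 10 were listed among 24940 genes of the age series and among 10589 genes of the SgshKO antisense table. 9 were listed among 10277 genes of the wild-type antisense table, where Rragd had no row. Every listed member passed the filter on low counts, which left 14309 genes for testing in the age series and removed none from the antisense tables.

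mTORC1 is recruited to the lysosomal surface when amino acids are plentiful. Heterodimers of Rag GTPases, in which RagA or RagB pairs with RagC or RagD, carry it there by binding its subunit Raptor (Rptor), and the small GTPase Rheb then activates the kinase Mtor. Folliculin (Flcn), bound to Fnip1 or Fnip2, is a GTPase-activating protein for RagC and RagD. Active RagC or RagD also presents the transcription factors TFEB, TFE3 and MITF to mTORC1, which phosphorylates them and keeps them in the cytoplasm. Flcn, Fnip1, Fnip2, Rragc and Rragd are known targets of these factors in other cells, so the sensor and its output form a loop. Ddit4 (REDD1) is an inhibitor of mTORC1 that acts through the TSC complex and is induced by hypoxia, stress and glucocorticoids.

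PolyA RNA was sequenced from microglia, the resident macrophages of the brain, sorted from the forebrain of C57BL/6 mice as CD11b+, CD45low and CX3CR1+ cells. SgshKO mice lack sulfamidase, a lysosomal enzyme that breaks down heparan sulfate. The age series held WT and SgshKO libraries at 3 weeks (3 WT, 4 SgshKO), 4 months (2 and 2) and 8 months (4 and 7). Other WT mice received 1 intracerebroventricular injection of PBS, of a control antisense oligonucleotide (ASO) labelled ntc, or of an ASO against Mitf, Tfeb or Tfe3 (4 libraries each), and microglia were collected 14 days later. SgshKO mice received ntc or Mitf and Tfe3 ASOs combined (8 libraries each, 4 in each of 2 sets that the titles call grp 1 and grp 2). The age of the injected mice, the sex of the mice and whether a library came from 1 mouse are not given in the labels, so p-values measure the spread between libraries. An ASO injected into the ventricles reaches other brain cells as well as microglia.

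Libraries of the age series held 8191508 to 27106584 counts, WT ASO libraries 14372015 to 30378870 and SgshKO ASO libraries 12517838 to 30431437. Sgsh transcripts were present in both genotypes. Sgsh stood at 20.3 to 25.9 CPM (counts scaled to library size) in WT and 14.9 to 23.4 in SgshKO at 3 weeks, and at 8 months at 31.9 to 59.2 CPM in WT with 20.1 to 34.7 CPM in SgshKO. The labels do not say which part of the gene is altered, so its transcript level does not check the genotype. The 10 microglial markers, P2ry12 and Tmem119 among them, were all detected. At 8 months they summed to 41400 to 49400 CPM in WT and 32700 to 36300 in SgshKO, and at 3 weeks to 54200 to 55800 and 48300 to 52100. The 10 neutrophil markers, S100a8 among them, summed to at most 7.68 CPM in WT, to 1.74 to 30.8 in SgshKO at 3 weeks, to 3030 and 14900 at 4 months and to 435 to 5860 at 8 months. The 6 monocyte markers summed to at most 14 CPM in WT, and in SgshKO to 329 and 1420 CPM at 4 months and 50.9 to 471 at 8 months. The 6 border macrophage markers summed to 54.8 to 75.8 CPM in WT and 82.2 to 109 in SgshKO at 3 weeks. At 4 months the sums were 9.34 and 10.3 CPM in WT and 68.1 and 121 in SgshKO. At 8 months they were 15.8 to 32.1 and 56.3 to 105. The 6 endothelial markers summed to 8.49 to 12 CPM in WT and 19.2 to 25.3 in SgshKO at 3 weeks. At that age astrocyte marker sums were 153 to 165 and 191 to 265 CPM, and oligodendrocyte marker sums overlapped. The part of other cell types in the results below was not tested. Ddx3y exceeded Xist in no library at 3 weeks, in 1 of 2 of each genotype at 4 months, and in 4 of 4 WT and 4 of 7 SgshKO libraries at 8 months. Between 3 weeks and 8 months in WT, age and this sex-linked difference cannot be told apart. The genotype comparison at 8 months and comparisons between ages that involve SgshKO share this limit in part. In sorted populations such as these, a larger share of cells with a transcript and more RNA per cell cannot be told apart.

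Promoter windows of the members are shown because several members moved together and because the MiT/TFE factors bind a known sequence, the E-box CACGTG within the longer CLEAR element. RefSeq windows on GRCm38.p6, from 250 bases before to 50 after the gene start, were matched for 10 of 10 members. CACGTG, which reads the same on both strands, was present in 3 of them (Fnip1, Rragc and Rheb), and in 8.09% of 27025 genes with such a window. The same 3 held TCACGTG on either strand, a form that contains the previous motif and was found in 4.29% of genes. No member window held the full CLEAR palindrome that extends this motif on both sides (0.37% of genes), or TCATGTG on either strand (4.31%). The sequences follow, 5′ to 3′ on the strand of the gene, with the match in capitals. The first 2 belong to genes that were higher in SgshKO, and the last to Rheb, which passed no genotype test at any age.
Rragc (chr4:123917294-123917353, + strand): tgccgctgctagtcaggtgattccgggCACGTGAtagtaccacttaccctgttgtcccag
Fnip1 (chr11:54438077-54438136, + strand): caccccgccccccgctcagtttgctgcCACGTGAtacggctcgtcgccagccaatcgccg
Rheb (chr5:24842441-24842470, − strand): ggccgcgcgcggTCACGTGggtgtgttgtt
The CACGTG within the match began 112 bases before the gene start in Rragc, 75 before it in Fnip1 and 96 before it in Rheb, by the RefSeq starts. GENCODE starts Rheb further upstream, at 24842624, and there the Rheb match lies inside the first exon. A match is a description of letters and not a binding site. The windows of Flcn, Fnip2 and Rragd, which also moved in SgshKO, did not hold these letters, which says nothing of sites elsewhere in those genes.

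In WT microglia at 3 weeks the members differed widely in level. On the length-scaled TPM of the deposited table (mean ± SD, n = 3), Ddit4 stood at 99.2 ± 49.6, Flcn at 92.5 ± 6.13, Rptor at 75.0 ± 7.51 and Rragc at 61.5 ± 2.62. Rraga stood at 38.0 ± 1.01, Rheb at 34.4 ± 4.1, Fnip1 at 33.5 ± 2.74, Fnip2 at 22.3 ± 0.354, Mtor at 14.8 ± 0.928 and Rragd at 1.32 ± 0.285 TPM. The Ddit4 libraries (57.3 to 154 TPM) overlapped those of Flcn, Rptor and Rragc, which did not overlap each other. Rheb (29.6 to 36.9 TPM) overlapped both its neighbours, Rraga and Fnip1. Rragc, for RagC, was far above Rragd, for RagD, and Rragb, for the RagA paralogue RagB, reached at most 1.03 CPM in any library of the age series. In SgshKO at 8 months Rragd had reached 16.1 ± 2.75 TPM (SD, n = 7) and its libraries overlapped those of Mtor at 12.6 ± 1.17 TPM.

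The first comparison asks how the Sgsh knockout changed these transcripts at each age. Flcn, Fnip1, Fnip2, Rragc and Rragd were higher in SgshKO at 3 weeks, and Fnip2, Rragc, Rragd and Fnip1 again at 4 and 8 months. Rptor and Ddit4 were lower at 4 and 8 months, and Mtor, Rheb and Rraga were not called at any age. By edgeR's quasi-likelihood test, 5 of 10 members were called at 3 weeks, all higher, where 9.03% of all genes were called (5.31% higher, 3.72% lower). At 4 months 6 were called (4 higher, 2 lower), against 19.5% of all genes (10.3% higher, 9.26% lower). At 8 months 6 were called (4 higher, 2 lower), against 40.5% (21.6% higher, 18.9% lower). The median log2 fold change of the 10 members was 0.32, 0.18 and 0.17 at the 3 ages, beside -0.02, 0.02 and 0.02 over all genes tested.

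**Figure D1:**
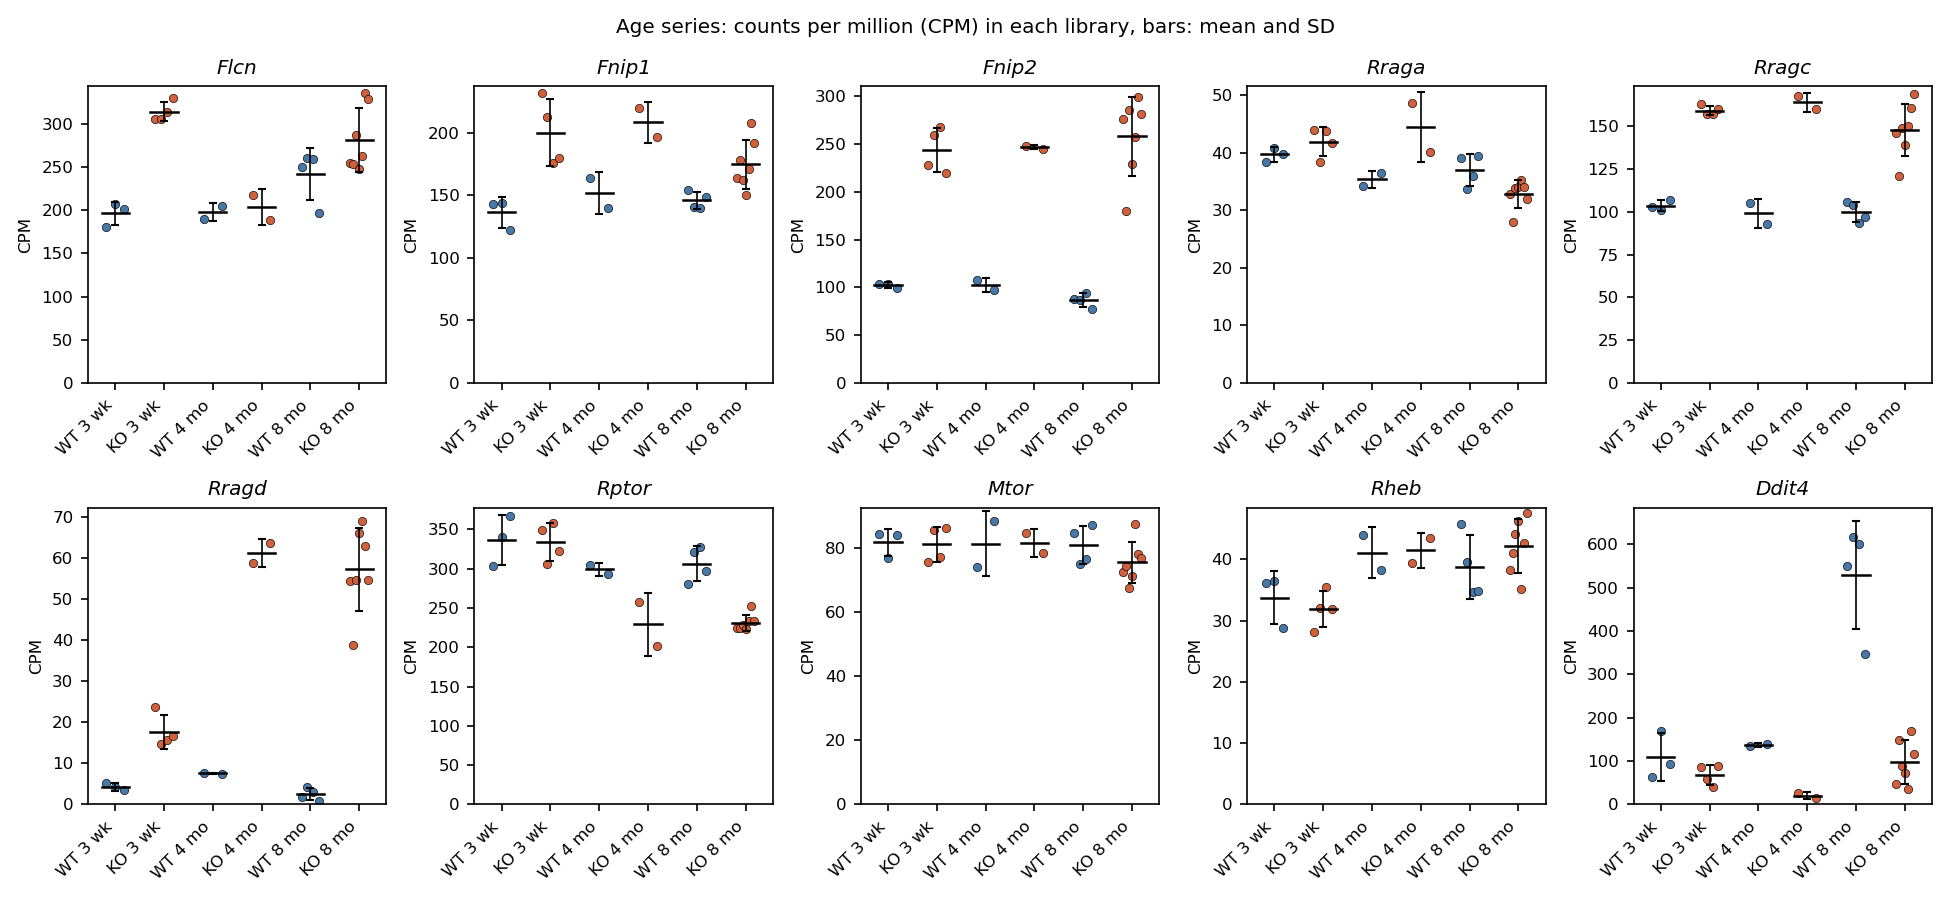
CPM of each of the 10 genes (one panel each, vertical axes from 0) in every library of the age series, by genotype and age; points are libraries, bars the mean and SD. Rragd rises from 0.884 to 7.56 CPM in WT to 14.7 to 69.0 CPM in SgshKO, whereas Mtor lies between 67.7 and 88.6 CPM in every group.

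Rragd, on mouse chromosome 4 (32982998 to 33022180, GRCm38.p6), encodes the RagD GTPase and had the largest change of the 10. At 3 weeks the WT libraries held 3.46, 4.21 and 5.33 CPM and the SgshKO libraries 14.7, 15.6, 16.8 and 23.7. At 4 months the values were 7.53 and 7.56 CPM in WT against 58.8 and 63.7 in SgshKO. At 8 months WT held 0.884, 1.73, 3.02 and 4.27 CPM, and SgshKO ran from 38.9 through a median of 54.8 to 69.0. The genotypes were separate at each age, and the SgshKO libraries of 4 and 8 months lay above all those of 3 weeks. The log2 fold change was 2.04 ± 0.28 (SE) at 3 weeks, 3.02 ± 0.35 at 4 months and 4.44 ± 0.26 at 8 months (edgeR, adjusted p = 1.29e-05, 1.05e-06 and 1.06e-12). Across the alternative fits it ran from 1.4 to 2.06 at 3 weeks and from 3.3 to 4.47 at 8 months. Mean TPM in SgshKO was 17.9 at 4 months and 16.1 at 8 months, and in WT 2.34 and 0.765. The effect at 8 months differed from that at 4 months by 1.42 ± 0.42 (interaction, edgeR, adjusted p = 0.151). That contrast passed with DESeq2 (1.43, adjusted p = 0.0311) and with no filter on low counts (1.4, 0.0335). The effect at 8 months exceeded that at 3 weeks by 2.40 ± 0.36 (interaction, edgeR, adjusted p = 9.14e-05), a contrast in which 4 of 10 members and 9.25% of all genes were called (5.98% higher, 3.26% lower). The interaction between 8 months and 3 weeks passed without any single library. Between 3 weeks and 8 months Rragd rose in SgshKO by 1.69 ± 0.21 (adjusted p = 1.18e-06), and in WT it had a log2 fold change of -0.71 ± 0.30 (adjusted p = 0.168). The SgshKO library with the lowest neutrophil marker sum at 8 months (435 CPM) held 63.1 CPM of Rragd, and the one with the highest (5860 CPM) held 54.8. At 4 months the SgshKO library with 3030 CPM of these markers held 58.8 CPM of Rragd and that with 14900 held 63.7. The part of neutrophil transcripts was not tested.

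Rragc (chromosome 4, 123917433 to 123936997) encodes RagC, and its promoter window with the E-box match is printed above. At 3 weeks WT held 101, 103 and 107 CPM and SgshKO 157, 157, 160 and 163. At 4 months WT held 93.2 and 105 CPM and SgshKO 160 and 168. At 8 months WT held 93.4, 97.2, 104 and 106 CPM, and SgshKO ran from 121 through a median of 149 to 169. The genotypes did not overlap at any age, and the SgshKO libraries were the higher ones throughout. The difference was 0.62 ± 0.089, 0.73 ± 0.12 and 0.56 ± 0.074 on the log2 scale (SE, edgeR, adjusted p = 3.05e-05, 7.07e-05 and 1.09e-06), and the difference between 8 months and 3 weeks was -0.05 ± 0.11 (adjusted p = 0.851). Exons of Rragc overlap those of 4930535I16Rik on the other strand. The library protocol marks strand, but whether the counting used it is not given in the sources used here.

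Rraga (chromosome 4, 86575673 to 86577283) encodes RagA, which pairs with RagC or RagD. It held 38.4, 39.8 and 40.9 CPM in WT and 38.4, 41.6, 43.7 and 44.0 in SgshKO at 3 weeks, and 34.3 and 36.4 in WT with 40.2 and 48.7 in SgshKO at 4 months. At 8 months it held 33.7, 35.9, 39.1 and 39.5 CPM in WT and ran from 27.9 through 33.8 to 35.3 in SgshKO. The genotype differences were 0.08 ± 0.10, 0.33 ± 0.13 and -0.17 ± 0.082 (SE, edgeR, adjusted p = 0.769, 0.0922 and 0.0985). On log2(TPM + 1) the 8-month value was -0.31 and passed (limma, adjusted p = 0.00106), where the median over all genes was -0.14. Within SgshKO the 8-month libraries lay below all 3-week libraries, with a log2 fold change of -0.35 ± 0.081 (adjusted p = 0.00179), in a contrast where 30.6% of all genes were called. Of the Rag genes, Rragc and Rragd were called higher in SgshKO, and Rraga was not. As a description on the TPM scale, Rragd made up a median of 2.11% of Rragc plus Rragd in WT and 5.0% in SgshKO at 3 weeks. That share was 3.79% and 16.1% at 4 months, and 1.24% and 16.1% at 8 months.

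Fnip2 (chromosome 3, 79455971 to 79567679) encodes one of the alternative folliculin partners. At 3 weeks WT held 99.4, 104 and 104 CPM and SgshKO 220, 228, 259 and 268. At 4 months WT held 97.3 and 108 CPM and SgshKO 245 and 248. At 8 months WT held 77.2, 86.5, 87.8 and 94.5 CPM, and SgshKO ran from 180 through 276 to 299. Fnip2 was the second most changed of the higher members and its groups were separate at all ages. The log2 fold change was 1.25 ± 0.13, 1.26 ± 0.16 and 1.58 ± 0.11 (SE, edgeR, adjusted p = 1.83e-07, 4.44e-06 and 1.71e-11). The change between 3 weeks and 8 months was 0.33 ± 0.16 (adjusted p = 0.227).

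Fnip1 (chromosome 11, 54438179 to 54518241), the other partner, differed less. At 3 weeks WT held 122, 143 and 144 CPM and SgshKO 176, 180, 213 and 232. At 4 months WT held 140 and 164 CPM and SgshKO 197 and 220. The 8-month WT libraries held 140, 141, 149 and 154 CPM, and SgshKO ran from 150 through 171 to 208, so that the groups overlapped. The log2 fold change was 0.56 ± 0.11, 0.46 ± 0.14 and 0.26 ± 0.090 (SE, edgeR, adjusted p = 0.00115, 0.0256 and 0.0227). The call at 3 weeks held in every alternative run. At 4 months it was lost without WT replicate 2 (adjusted p = 0.226), SgshKO replicate 1 (0.193) or SgshKO replicate 2 (0.0687), and on log2(TPM + 1) or log2(TPM + 0.1) (0.37, limma, 0.0707 and 0.0723). At 8 months it was lost without WT replicate 2, 3 or 4 or SgshKO replicate 6 (0.0538 to 0.0653). The 8-month value was 0.18 (adjusted p = 0.145) with the Ddx3y minus Xist difference as a covariate, 0.16 (adjusted p = 0.121) with the replicate number as a block, and 0.11 (limma, adjusted p = 0.334) on log2(TPM + 1). In that TPM fit the median over all genes was -0.14. On the TPM scale Fnip2 made up a median of 39.1% of Fnip1 plus Fnip2 in WT and 51.8% in SgshKO at 3 weeks, 37.5% and 51.2% at 4 months, and 34.3% and 57.1% at 8 months.

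Flcn (chromosome 11, 59791408 to 59810039), the folliculin gene, had its largest difference in the youngest mice. At 3 weeks WT held 181, 201 and 207 CPM and SgshKO 306, 306, 314 and 330, a wide gap. At 4 months WT held 190 and 205 CPM. SgshKO held 189 CPM in the library with 14900 CPM of neutrophil markers and 218 in that with 3030. The 8-month WT libraries held 197, 250, 259 and 260 CPM, and SgshKO ran from 248 through 263 to 336. The groups overlapped at 4 and 8 months, and the lowest 8-month WT library lay apart from the others. On the log2 scale the difference was 0.68 ± 0.11 at 3 weeks (SE, edgeR, adjusted p = 1.54e-04), 0.04 ± 0.15 at 4 months (adjusted p = 0.886) and 0.22 ± 0.091 at 8 months (adjusted p = 0.0546). The 8-month value passed with DESeq2 (0.0365), and without WT replicate 3 (0.0499), SgshKO replicate 1 (0.0467) or SgshKO replicate 4 (0.0348). It was smaller without WT replicate 4, the low library (0.11, adjusted p = 0.385), with the replicate block (0.11, 0.333), with the Ddx3y minus Xist covariate (0.10, 0.378) and on log2(TPM + 1) (0.07, limma, 0.491). The median over all genes was -0.14 in that TPM fit. The effect at 8 months was smaller than that at 3 weeks by the interaction test, with a difference of -0.46 ± 0.14 (adjusted p = 0.0436), but that call was lost in 13 of 18 fits that each left out 1 library (adjusted p = 0.0512 to 0.118, the highest without WT replicate 1 of 3 weeks). It held without SgshKO replicate 1 of 3 weeks, and without WT replicate 4 or SgshKO replicates 3, 6 or 7 of 8 months. The difference between 4 months and 3 weeks was -0.64 ± 0.18 (adjusted p = 0.0598), in a contrast where 2.52% of all genes were called. It passed in 6 of 7 alternative fits on all libraries, among them DESeq2 (-0.61, adjusted p = 0.0223). By edgeR no member was called between 4 months and 3 weeks, and none between 8 and 4 months, where 0.391% of all genes were called. At an unadjusted p under 0.05 there were 4 members, Flcn among them, beside 2312 of 14309 genes in the first contrast. In the second there were 2 members, beside 1641 genes.

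Rptor (chromosome 11, 119602905 to 119899591) encodes Raptor, the mTORC1 subunit that the Rag GTPases bind. At 3 weeks WT held 303, 340 and 367 CPM and SgshKO 306, 323, 349 and 358. At 4 months WT held 293 and 305 CPM. SgshKO held 201 CPM in the library with 14900 CPM of neutrophil markers and 257 in that with 3030. The 8-month WT libraries held 280, 297, 321 and 328 CPM, and SgshKO ran from 223 through 228 to 252. The genotypes were intermixed at 3 weeks and separate later. On the log2 scale the difference was -0.01 ± 0.088, -0.39 ± 0.12 and -0.41 ± 0.072 (SE, edgeR, adjusted p = 0.977, 0.0203 and 5.95e-05). The effect at 8 months differed from that at 3 weeks by -0.40 ± 0.11 (adjusted p = 0.0275), and within SgshKO Rptor was lower at 8 months than at 3 weeks by a log2 fold change of -0.53 ± 0.071 (adjusted p = 3.60e-06). Without WT replicate 1, WT replicate 2 or SgshKO replicate 2 the 4-month difference did not pass (adjusted p = 0.137, 0.0897 and 0.217), and without SgshKO replicate 1 it was -0.61 (0.00295). The interaction did not pass without WT replicate 1 of 3 weeks (0.0949) or WT replicate 3 of 8 months (0.0596). Exons of Rptor overlap those of the antisense gene Rptoros, with the limit on strand given for Rragc.

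Mtor (chromosome 4, 148448582 to 148557685), the kinase itself, was not called in any comparison by edgeR. WT held 77.0, 84.1 and 84.6 CPM at 3 weeks, 74.3 and 88.6 at 4 months, and 75.1, 76.7, 84.7 and 87.3 at 8 months. SgshKO held 75.8, 77.4, 85.6 and 86.4 CPM at 3 weeks, 78.5 and 84.7 at 4 months, and ran from 67.7 through 74.4 to 87.6 at 8 months. The genotypes overlapped throughout, with log2 fold changes of -0.01 ± 0.092, 0.00 ± 0.12 and -0.10 ± 0.075 (SE, edgeR, adjusted p = 0.979, 1 and 0.326). On log2(TPM + 1) the 8-month value was -0.23 (limma, adjusted p = 0.0242), where the median over all genes was -0.14. Rheb (chromosome 5, 24802823 to 24842361), the activating GTPase, held 28.8, 36.1 and 36.4 CPM in WT and 28.2, 31.9, 32.1 and 35.5 in SgshKO at 3 weeks, and 38.2 and 44.0 in WT with 39.4 and 43.5 in SgshKO at 4 months. At 8 months it held 34.7, 34.9, 39.6 and 45.7 CPM in WT and ran from 35.2 through 42.7 to 47.5 in SgshKO. Its genotype differences were -0.08 ± 0.13, 0.02 ± 0.17 and 0.12 ± 0.10 (adjusted p = 0.817, 0.962 and 0.375). Within SgshKO Rheb was higher at 8 months than at 3 weeks, by 0.40 ± 0.10 (adjusted p = 0.0045), and the same contrast in WT gave 0.20 ± 0.13 (adjusted p = 0.398).

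Ddit4 (chromosome 10, 59949675 to 59951770), the inhibitor, was lower in SgshKO at 4 and 8 months. At 3 weeks WT held 62.4, 93.0 and 170 CPM and SgshKO 40.6, 59.7, 85.8 and 89.4. At 4 months WT held 134 and 140 CPM. SgshKO held 14.2 CPM in the library with 14900 CPM of neutrophil markers and 25.7 in that with 3030. The 8-month WT libraries held 347, 550, 601 and 616 CPM, and SgshKO ran from 35.6 through 88.5 to 170. The groups overlapped at 3 weeks and were far apart later. On the log2 scale the difference was -0.65 ± 0.40, -2.80 ± 0.59 and -2.45 ± 0.32 (SE, edgeR, adjusted p = 0.423, 0.00127 and 1.04e-06). The 8-month effect differed from the 3-week effect by -1.80 ± 0.52 (adjusted p = 0.0299), a call lost in 6 of 18 fits that left out 1 library (adjusted p = 0.052 to 0.106). Those libraries were WT replicates 1 and 3 and SgshKO replicates 1 and 4 of 3 weeks, and WT replicates 2 and 3 of 8 months. In WT, Ddit4 was the only member called between 3 weeks and 8 months, with a rise of 2.28 ± 0.43 (adjusted p = 0.00111), where 7.65% of all genes were called. Age and the difference in Ddx3y and Xist cannot be told apart in that WT contrast. In SgshKO the same contrast gave 0.49 ± 0.34 (adjusted p = 0.302).

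Transcripts induced by glucocorticoids or by tissue dissociation were counted beside Ddit4. The 6 glucocorticoid-responsive genes (Fkbp5, Tsc22d3, Sgk1, Per1, Zbtb16 and Klf9) summed to 1620 to 2030 CPM in WT and 1210 to 2690 in SgshKO at 3 weeks. At 4 months the WT sums were 3220 and 3350 CPM and the SgshKO sums 1510 and 1760, and at 8 months they were 2980 to 3790 and 1430 to 2230. Of the 6, none was called between genotypes at 3 weeks, 1 was lower at 4 months (Sgk1, -1.18 ± 0.28, SE, edgeR, adjusted p = 0.00365) and 5 were lower at 8 months, for example Tsc22d3 (-1.87 ± 0.33, adjusted p = 6.09e-05) and Per1 (-0.94 ± 0.30, adjusted p = 0.015), where 18.9% of all genes were lower. In WT, 5 of the 6 rose between 3 weeks and 8 months, Fkbp5 by 3.12 ± 0.32 (adjusted p = 5.58e-07), where 7.65% of all genes were called. The limit on age and sex-linked transcripts given for Ddit4 holds here too. For the 12 dissociation-response genes, Fos and Jun among them, the 3-week sums were 5400 to 8570 CPM (WT) and 5310 to 24800 (SgshKO). They were 20600 and 26900 with 15200 and 17500 CPM at 4 months, and 9030 to 11300 with 5370 to 9040 at 8 months. At 3 weeks 3 of the 12 were higher in SgshKO, where 5.31% of all genes were, and at 4 months none was called. At 8 months 4 of the 12 were called, 3 lower (Egr1, Fos and Hspa1b) and 1 higher (Atf3), a share below the 40.5% of all genes called. The part of these responses in the Ddit4 values was not tested.

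**Figure D2:**
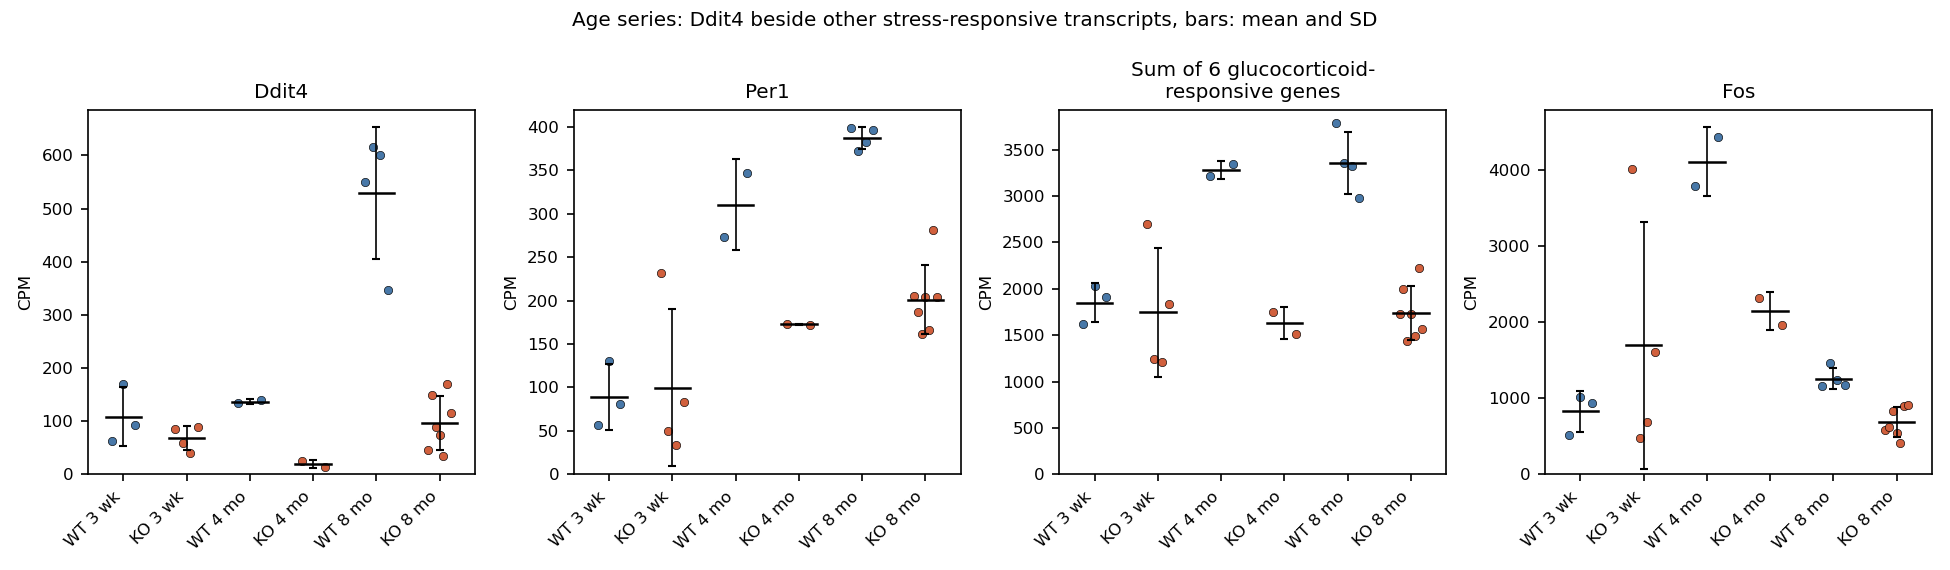
CPM of Ddit4, Per1, the sum of 6 glucocorticoid-responsive genes and Fos in every library of the age series, by genotype and age (linear axes from 0; bars, mean and SD). At 8 months the WT libraries lie above the SgshKO libraries for Ddit4 (347 to 616 against 35.6 to 170) and for the glucocorticoid-responsive sum (2980 to 3790 against 1430 to 2230).

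The wider pathway was counted over 50 further genes, all tested in the age series. In SgshKO 1 rose and 1 fell at 3 weeks, where 9.03% of all genes were called. At 4 months 1 rose and 3 fell, against 19.5%, and at 8 months 9 rose and 9 fell, against 40.5%. At each age the share of the 50 that was called lay below the share of all genes. Among the amino acid sensors, Castor1 (under its older symbol Gatsl3 in the age table), which encodes an arginine sensor, was higher at each age (1.27 ± 0.19, 1.11 ± 0.24 and 1.21 ± 0.15, SE, edgeR, adjusted p = 4.39e-05, 0.00178 and 6.76e-07). Sesn1, which encodes a sestrin, was lower at each age (-0.50 ± 0.15, -0.81 ± 0.21 and -0.98 ± 0.12, adjusted p = 0.0399, 0.00681 and 7.43e-07). Sesn2, which encodes a leucine sensor, was lower at 4 months (-0.67 ± 0.22, adjusted p = 0.0315) and at 8 months (-0.75 ± 0.13, adjusted p = 5.42e-05). Of the Ragulator scaffold that anchors the Rag GTPases to the lysosome, 3 of 5 subunits were higher at 8 months, Lamtor1 by 0.57 ± 0.10 (adjusted p = 6.33e-05). At that age 21.6% of all genes were higher. Prkab1, which encodes a regulatory subunit of the energy sensor AMPK, was lower at 8 months by a log2 fold change of -0.74 ± 0.11 (adjusted p = 6.13e-06) and at 4 months (-0.87 ± 0.18, adjusted p = 0.00115). The 50 genes had a median log2 fold change of 0.00, 0.05 and 0.12 at the 3 ages. Of the MiT/TFE factors, Mitf was higher in SgshKO at each age (0.47 ± 0.11, 0.61 ± 0.14 and 0.84 ± 0.091, adjusted p = 0.00582, 0.00344 and 5.70e-08), and Tfeb and Tfe3 were not called. Tfec, also of this family, had low TPM values whose direction differed between ages. Its 3-week SgshKO libraries (1.37 to 2.45 TPM) lay below the WT libraries (2.7 to 4.86), without a call. The 4-month SgshKO libraries (1.73 and 2.14 TPM) lay above WT (0 and 0.254). The 8-month ranges overlapped (SgshKO 0.758 to 2.78 TPM, WT 0.211 to 1.76).

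**Figure D3:**
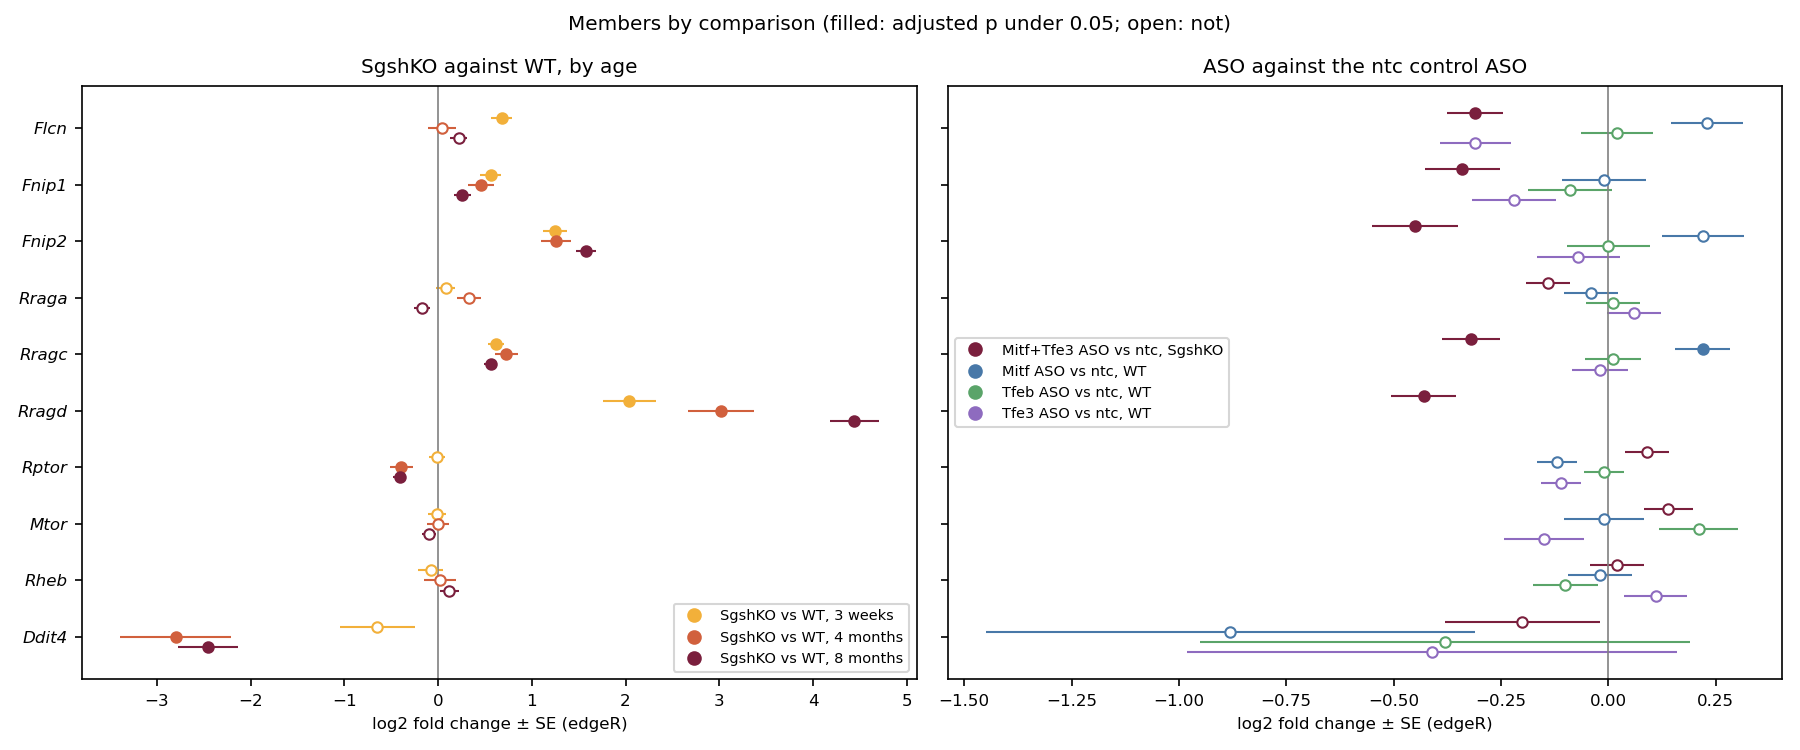
Log2 fold changes (edgeR, with SE as bars) of the 10 genes between SgshKO and WT at each age (left) and between ASO groups and the ntc control (right, Rragd not listed in the WT table); filled points have an adjusted p under 0.05, and the horizontal scales differ. The 5 genes called higher in SgshKO at 3 weeks are the 5 called lower with the Mitf and Tfe3 ASOs in SgshKO.

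The next comparison asks which of the MiT/TFE factors these transcripts depend on in WT microglia. Each ASO lowered its own target: Mitf by a log2 fold change of -4.81 ± 0.12, Tfeb by -3.24 ± 0.081 and Tfe3 by -2.38 ± 0.055 (SE, edgeR, adjusted p = 8.37e-15, 5.80e-15 and 1.36e-15). The 3 comparisons share the 4 ntc libraries. With the Tfeb ASO 0 of 9 listed members were called (edgeR), where 0.778% of all genes were, and with the Tfe3 ASO 0, where 2.16% were. At an unadjusted p under 0.05 these were 1 and 3 members, beside 1478 and 1711 of all 10277 genes. By DESeq2 they were 0 and 1 members, beside 213 and 403 genes. With the Mitf ASO 1 was called, Rragc, where 11% of all genes were. Between ntc and PBS 0 members and 0 of all genes were called, with 0 members and 415 genes at an unadjusted p under 0.05, and DESeq2 called 2 genes and 0 members.

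Flcn had the smallest adjusted p among members in any comparison of the WT ASO groups. It held 123, 143, 146 and 169 CPM with PBS and 138, 145, 150 and 161 with ntc. It held 152, 164, 175 and 209 CPM with the Mitf ASO, 139, 147, 155 and 158 with the Tfeb ASO, and 111, 116, 118 and 135 with the Tfe3 ASO. The Tfe3 ASO libraries lay below all ntc libraries and below all Mitf ASO libraries, whereas the Tfeb ASO libraries lay among those of ntc. Against ntc the log2 fold change was 0.23 ± 0.083 with the Mitf ASO (SE, edgeR, adjusted p = 0.078), 0.02 ± 0.083 with the Tfeb ASO (0.949) and -0.31 ± 0.083 with the Tfe3 ASO (0.0611). With DESeq2 the Tfe3 value (-0.30, adjusted p = 0.0183) and the Mitf value (0.24, adjusted p = 0.043) passed. The Tfe3 value also passed on the batch-corrected signal (limma, 0.0351), and the Mitf value without Mitf ASO replicate 3 (0.0231). Compared directly, Flcn was higher with the Mitf than with the Tfe3 ASO by 0.54 ± 0.083 (adjusted p = 5.37e-04), in a contrast where 3.76% of all genes were called, and that call held in every alternative and without any single library. The difference between the Tfeb and the Tfe3 ASO was 0.33 ± 0.083 (adjusted p = 0.0556), where 1.62% of all genes were called, and that between the Mitf and the Tfeb ASO 0.22 ± 0.083 (0.168), where 3.53% were. The former passed with DESeq2 (0.0116) and on the batch-corrected signal (limma, 0.037).

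Rragc held 110, 112, 122 and 122 CPM with PBS, 116, 120, 121 and 150 with ntc, and 117, 138, 158 and 183 with the Mitf ASO. It held 107, 123, 128 and 153 CPM with the Tfeb ASO and 100, 121, 134 and 148 with the Tfe3 ASO. All groups overlapped, but within each replicate number, which is the grp of the titles, the Mitf ASO library was above the ntc library. The log2 fold change of the Mitf ASO against ntc was 0.22 ± 0.064 (SE, edgeR, adjusted p = 0.0325), and that against the Tfe3 ASO 0.24 ± 0.065 (adjusted p = 0.0447). Both rest on the block: without it the adjusted p was 0.479 and 0.749. The first was also lost without ntc replicate 1, 2 or 4 or Mitf ASO replicate 1, 2 or 4 (adjusted p = 0.0502 to 0.124). The second was lost in 7 of 8 such fits, all but that without Mitf ASO replicate 3 (adjusted p = 0.0661 to 0.164).

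**Figure D4:**
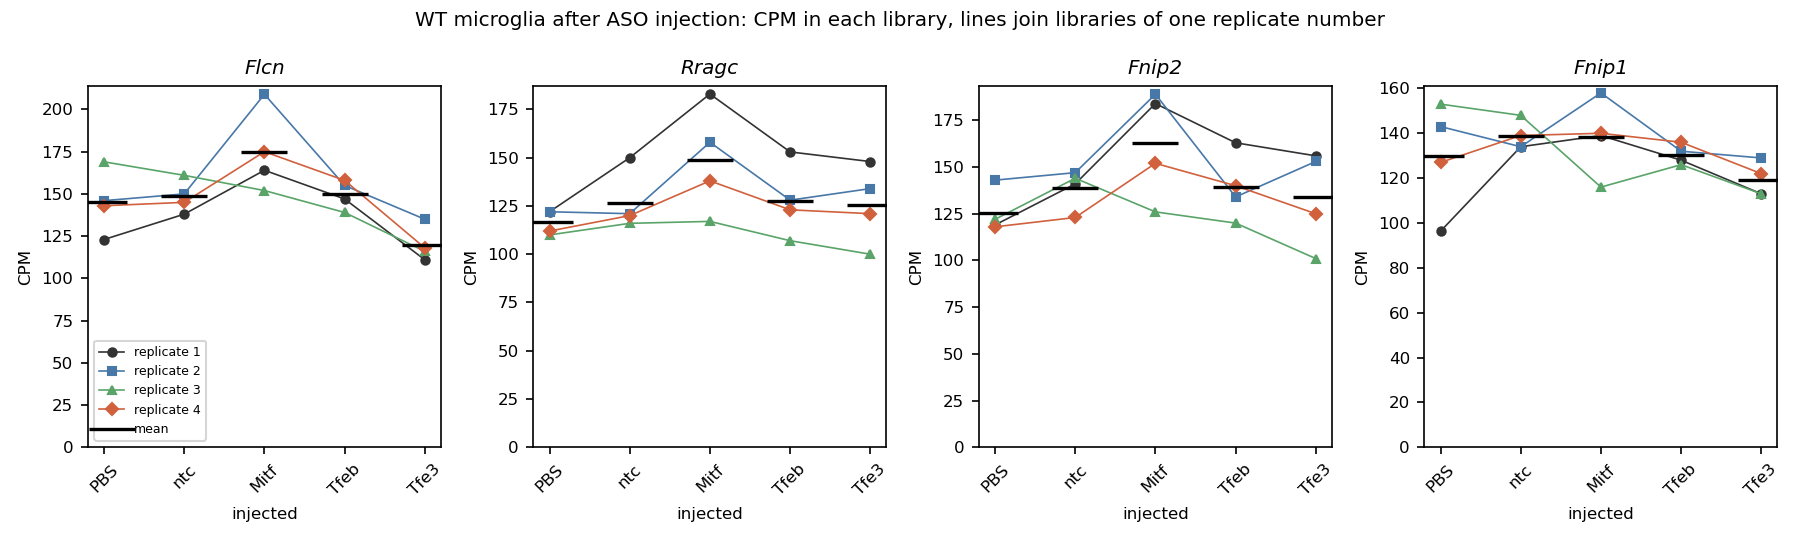
CPM of Flcn, Rragc, Fnip2 and Fnip1 in the 20 WT ASO libraries by injected agent (axes from 0); each coloured line joins the libraries of 1 replicate number and black marks are group means. For Flcn the 4 Tfe3 ASO libraries (111 to 135 CPM) lie below the 4 ntc (138 to 161 CPM) and 4 Mitf ASO libraries (152 to 209 CPM).

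The other listed members were not called in any WT ASO comparison by edgeR. Fnip2 held 123 to 147 CPM with ntc and 126 to 189 with the Mitf ASO, 0.22 ± 0.096 higher (SE, adjusted p = 0.167). Fnip1 held 134 to 148 CPM with ntc and 113 to 129 with the Tfe3 ASO, ranges that did not overlap, with a log2 fold change of -0.22 ± 0.098 (adjusted p = 0.265). Groups did not overlap for 2 of 9 members in that contrast (Flcn and Fnip1), against 4.68% of all genes. Mtor held 27.2 to 41.5 CPM with the Tfeb ASO and 25.9 to 31.2 with the Tfe3 ASO, a difference of 0.36 ± 0.093 (edgeR, adjusted p = 0.0616) that passed with DESeq2 (0.35, adjusted p = 0.0175). Rptor ran from 238 to 360 CPM, Rheb from 44.0 to 59.4 and Rraga from 46.9 to 65.3 over the 20 libraries. Ddit4 ran from 8.80 to 81.4 CPM, with SEs of 0.55 to 0.57 on its log2 fold changes, the widest of the 9. Of 45 further pathway genes listed there, 4 were higher with the Mitf ASO, namely Castor1 (0.71 ± 0.11, adjusted p = 5.60e-04), Eif4ebp1, Lamtor3 and Akt1s1. In that contrast 11% of all 10277 genes were called, 593 of them higher. With the Tfeb ASO 1 was higher, Castor1 (0.54 ± 0.12, adjusted p = 0.034), and with the Tfe3 ASO none was called. Of all genes, 0.778% and 2.16% were called there.

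The last comparison asks whether the transcripts raised in SgshKO microglia fell when Mitf and Tfe3 were lowered together. Flcn, Fnip1, Fnip2, Rragc and Rragd were all lower with the combined ASOs than with ntc, and the other members were not called. Mitf itself fell from 60.7 to 82.1 CPM with ntc to 7.51 to 23.2 with the combination (-2.26 ± 0.12, SE, edgeR, adjusted p = 2.19e-09). Tfe3 went from 137 to 194 CPM to 75.0 to 87.1 (-1.08 ± 0.058, adjusted p = 2.19e-09), and Tfeb, which was not targeted, had a log2 fold change of -0.26 ± 0.082 (adjusted p = 0.0535). 5 of 10 members were called, all lower, where 9.33% of all genes were called (4.84% higher, 4.5% lower). The median over the 10 members was -0.26, beside 0.00 over all genes. The 5 genes called higher in SgshKO at 3 weeks and the 5 called lower here were the same 5 of 5. The comparisons use different libraries. Of all 711 genes called higher at 3 weeks and listed here, 24.9% were called lower and 5.34% higher with the combination.

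**Figure D5:**
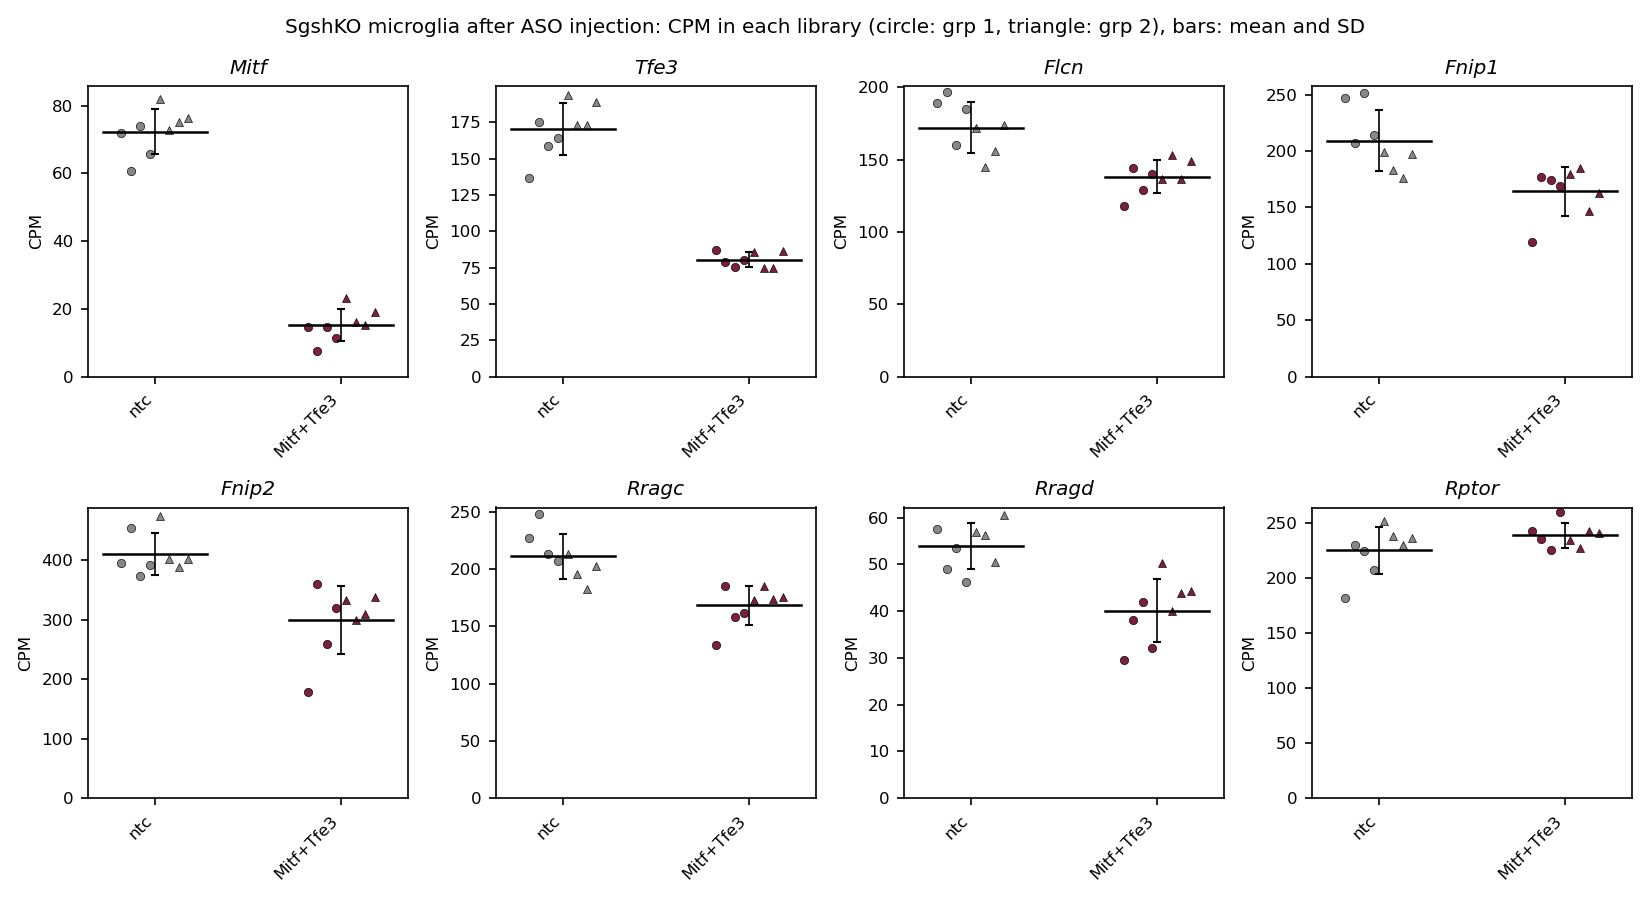
CPM of the targeted Mitf and Tfe3 and of 6 pathway genes in the 16 SgshKO ASO libraries (axes from 0), with circles for grp 1, triangles for grp 2, and bars for the mean and SD. Flcn, Fnip1, Fnip2, Rragc and Rragd are lower with the combination (Fnip2 179 to 360 against 373 to 474 CPM), and Rptor (225 to 260 against 182 to 252 CPM) was not called.

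Rragd ran from 46.2 through a median of 54.9 to 60.6 CPM with ntc and from 29.5 through 41.1 to 50.3 with the combination. 1 combination library, at 50.3 CPM, reached into the range of ntc. On the log2 scale the difference was -0.43 ± 0.076 (SE, edgeR, adjusted p = 0.00206), and Rragd was the only member called both in grp 1 alone (-0.52, adjusted p = 0.0495) and in grp 2 alone (-0.34, adjusted p = 0.0308). Fnip2 ran from 373 through 398 to 474 CPM with ntc and from 179 through 314 to 360 with the combination, the only member without overlap between groups, where 1.06% of all genes showed none. Its log2 fold change was -0.45 ± 0.10 (adjusted p = 0.0102). The lowest library, grp 1 replicate 1 of the combination, held 179 CPM of Fnip2 and 119 of Fnip1, and both calls held without it.

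Flcn ran from 145 through 173 to 197 CPM with ntc and from 118 through 139 to 153 with the combination (-0.31 ± 0.065, SE, edgeR, adjusted p = 0.00615). Rragc ran from 183 through 210 to 248 CPM and from 134 through 174 to 185 (-0.32 ± 0.068, adjusted p = 0.00675). Fnip1 ran from 176 through 203 to 251 CPM and from 119 through 171 to 185 (-0.34 ± 0.087, adjusted p = 0.0204). In each of these the combination libraries were shifted down with some overlap. The shifts were larger in grp 1 than in grp 2: Flcn -0.44 against -0.18, Rragc -0.47 against -0.18 and Fnip1 -0.51 against -0.17. The difference between the sets was not tested. In grp 2 alone none of these 3 was called (adjusted p = 0.135, 0.0902 and 0.2), and in grp 1 alone Flcn and Rragc were (0.0469 and 0.0486) and Fnip1 was not (0.0598).

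The core of the complex, its activator, RagA and the inhibitor were not called. Rptor ran from 182 through 230 to 252 CPM with ntc and from 225 through 238 to 260 with the combination (0.09 ± 0.052, SE, edgeR, adjusted p = 0.317). Mtor ran from 33.7 through 40.2 to 47.3 CPM and from 38.2 through 44.2 to 47.9 (0.14 ± 0.056, adjusted p = 0.132). Rheb ran from 47.4 to 64.6 CPM and from 47.3 to 63.3 (0.02 ± 0.062, adjusted p = 0.884). Rraga ran from 51.3 through 60.3 to 70.1 CPM and from 50.7 through 54.9 to 61.9 (-0.14 ± 0.051, adjusted p = 0.0867), and passed without ntc grp 2 replicate 4 (0.0381) or combination grp 2 replicate 1 (0.0387). Ddit4 ran from 8.66 to 21.9 and from 7.65 to 17.9 CPM (-0.20 ± 0.18, adjusted p = 0.542). The 12 dissociation-response genes summed to 573 to 766 CPM with ntc and 477 to 705 with the combination. For the 5 listed glucocorticoid-responsive genes the sums were 511 to 638 and 438 to 709 CPM. Levels were not compared between the age series and the ASO libraries. Microglial markers summed to 43900 to 46900 CPM with ntc and 43500 to 50200 with the combination, and the 6 listed neutrophil markers to 1.03 to 564 and 0.996 to 358 CPM. Of 44 further pathway genes listed there, Larp1 (0.25 ± 0.074, adjusted p = 0.0428) was higher, and Seh1l (-0.19 ± 0.059, adjusted p = 0.0472) and Prr5l (-0.27 ± 0.083, adjusted p = 0.0485) were lower. That share lay below the 9.33% of all genes called.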

How the data were processed

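PolyA RNA of 58 libraries in 13 groups was analysed. The deposited files hold raw read counts per gene in 3 tables (the age series, the WT and the SgshKO ASO libraries), as whole numbers. The authors also deposited TPM values for the age series and a batch-corrected signal per gene for each ASO table; how those were corrected is not given in the sources used here. Per the submitters' processing notes, STAR 2.5.3a, kallisto 0.44.0, HOMER 4.11, DESeq2 1.36.0, R 4.2.3 and mm10 were used, with no role stated. The labels name 2 RNA kits and 2 sequencers without saying which library had which.

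Each count table was fitted on its own with edgeR 4.0.16 (R 4.3.3): TMM scaling, filterByExpr with a minimum count of 10, the quasi-likelihood F test and Benjamini-Hochberg adjustment over all genes tested, with 0.05 as the threshold. The age model held 6 group means. The WT ASO model added the grp of the titles, which equals the replicate number, and the SgshKO ASO model added grp 1 or 2. CPM use the TMM-scaled library sizes, and SE is the log2 fold change over the root of F. 16 comparisons were made, none across tables. Alternatives were other scaling, no filter, DESeq2 1.42.0, limma 3.58.1 on TPM (pseudocount 1 or 0.1, mean TPM of at least 1) and on the batch-corrected signal, fits with or without the replicate block, and leaving out each library. Placing PBS replicate 4 in grp 3, where its column name puts it, a Ddx3y minus Xist covariate and leaving out the 4-month libraries were chosen after seeing the data. The models were tested on simulated data.

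Same-numbered libraries had deviations from their group means that correlated at -0.171 to 0.115 in the age series, so the numbers were not taken as pairs there. The correlations were -0.0333 to 0.64 over 40 pairs in the WT ASO libraries and 0.0839 to 0.612 in the SgshKO ASO libraries. Libraries with different numbers correlated at -0.487 to 0.352 in the WT ASO set, and at -0.612 to 0.264 within a grp in SgshKO. The main SgshKO ASO model held grp without the replicate number. With the number within grp as a block, 5 members were again called, beside 1011 of all genes.

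The 10 members were all described. Of other pathway genes, at most the 5 called with the smallest adjusted p per comparison were named. The members and gene lists were chosen with earlier results of these data known. Single-nucleus, single-cell, ATAC and ChIP data were not analysed here.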

Additional observations from a re-analysis of the deposited data

Results flagged for a closer look

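The effect of SgshKO differed between 8 months and 3 weeks, by the interaction test, for 4 members. For Rragd the increase was larger at 8 months (difference 2.4 on the log2 scale), and for Flcn it was smaller (-0.46). Rptor (-0.4) and Ddit4 (-1.8) were lower in SgshKO at 8 months, and neither was called between genotypes at 3 weeks. The Flcn call was lost in 13 of 18 fits that left out 1 library, the Ddit4 call in 6 and the Rptor call in 2.

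In 5 of 95 sets of a gene and a group, 1 library lay apart relative to the range of that group. Chance alone flags about 1 in 20, or 4.8. The distance itself was small for some, such as Mtor below. Flcn was low in replicate 4 of WT at 8 months (197 CPM, the others 250 to 260). Fnip2 was high in PBS replicate 2 (143 CPM, the others 118 to 122), and Mtor was high in PBS replicate 1 (34.9 CPM, the others 33.4 to 33.5). Rptor was high in replicate 6 of SgshKO at 8 months (252 CPM, the others 223 to 233). Rragc was high in ntc replicate 1 of the WT ASO libraries (150 CPM, the others 116 to 121).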

How the results depend on the processing

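No member changed direction where it was called. The number of members called between genotypes at 3 weeks was 5 in every fit that left out 1 library, 4 to 5 at 4 months and 5 to 7 at 8 months. For the change of the SgshKO effect, such fits called 1 to 4 members between 8 months and 3 weeks, 0 to 2 between 4 months and 3 weeks and 0 to 1 between 8 and 4 months. Between 3 weeks and 8 months they called 1 to 2 in WT and 4 to 5 in SgshKO. They called 0 to 2 for the Mitf ASO against ntc, 0 for the Tfeb ASO, the Tfe3 ASO and ntc against PBS, 0 to 1 for the Mitf against the Tfeb ASO, 1 to 2 for the Mitf against the Tfe3 ASO, 0 to 1 for the Tfeb against the Tfe3 ASO, and 5 to 6 for the combination in SgshKO.

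For the change between 4 months and 3 weeks, 0 members became 2 with no filter on low counts, and 1 with DESeq2, with either TPM pseudocount, with the replicate block or with the Ddx3y minus Xist covariate. Between 8 and 4 months, 0 became 1 with no filter and 1 with DESeq2. The covariate gave 2 in place of 1 between ages in WT, and both TPM fits gave 7 and the replicate block 6 in place of 4 between ages in SgshKO. The replicate block gave 5 in place of 4 for the change between 8 months and 3 weeks, with Fnip1 (-0.42, adjusted p = 0.0389) added. Between genotypes, 6 became 5 with both TPM fits at 4 months, and at 8 months 5 with the replicate block or the covariate and 7 with DESeq2 or both TPM fits. For the Mitf ASO, 1 became 2 with DESeq2 and 0 with no replicate block. DESeq2 and the batch-corrected signal each gave 1 in place of 0 for the Tfe3 ASO, 1 in place of 0 for the Mitf against the Tfeb ASO, and 2 in place of 0 for the Tfeb against the Tfe3 ASO. For the Mitf against the Tfe3 ASO, 2 became 1 with no replicate block and 1 with PBS replicate 4 in grp 3. The combination had 3 called in grp 1 alone and 2 in grp 2 alone, in place of 5, in fits with fewer libraries. The other causes were not tested.

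Over all genes, fits with no replicate block called 211 genes in place of 1128 for the Mitf ASO, 9 in place of 80 for the Tfeb ASO and 29 in place of 222 for the Tfe3 ASO. DESeq2 called 685 genes in place of 361 between 4 months and 3 weeks, and 163 in place of 56 between 8 and 4 months. The combination called 452 with no grp term, 192 in grp 1 and 430 in grp 2, in place of 988. On log2(TPM + 1), 2053 of 6119 genes called at 8 months were higher, against 3090 of 5793 by edgeR, and the median over all genes was -0.14 in place of 0.02. With 2 libraries a genotype, the 4-month values have the least support.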
